A study of Drosophila mojavensis with 97 samples.

Results

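In adult female *Drosophila mojavensis*, 29 of the 14528 transcripts on the array rose steadily with warming, at the step from 15 to 25°C and again at the step from 25 to 35°C. They were chosen by the measured values themselves. The mean of the 8 groups at 25°C had to exceed that of the 8 groups at 15°C by at least 0.2 on the log2 scale, and the mean at 35°C had to exceed that at 25°C by as much. Each step had to be positive in at least 7 of the 8 combinations of population and cactus, and the difference between Baja California and the mainland had to stay under 1.5 times in either direction. A further 5 transcripts were to be left out by name, and 0 of them met these thresholds. Both temperature steps and the regional difference of the members are therefore given as a description, with no test.

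The samples were wild-type flies of 4 laboratory populations, reared from egg to adult on fermenting tissue of agria or organ pipe cactus. Those of Baja California were collected at Punta Prieta (PP) and at San Quintin (SQ), those of the mainland at Organ Pipe National Monument (OPNM) and at Punta Onah (PO). Females aged 7 days spent 12 hr in daylight at 1 of the 3 temperatures, 15, 25, or 35°C, and RNA came from whole flies in groups of about 30. With population, cactus, and temperature crossed there were 24 groups of 4 arrays, except PP flies on agria at 35°C with 5, so that 97 arrays were hybridized, 32 at 15°C, 32 at 25°C, and 33 at 35°C. Flies of every group were fed banana food as adults, the stocks had been in the laboratory for 12 to 18 months, and the OPNM stock was a mixture of 20 isofemale lines.

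Temperature sets the rate of most processes in a small ectotherm, and the transcripts best known for a response to warming in flies are the heat shock chaperones, which are switched on by heat stress. A transcript that also rises between a cool and a moderate temperature follows a different course, a graded one. Names were taken from the study's supplementary tables, which pair 24 of the 29 transcripts with a gene identifier, 7 with a *D. melanogaster* orthologue, and 16 with an orthologue or a functional term. The orthologues of the 7 named members act in lipid and sterol handling (CG15533, NPC1b, ninaD), in folate and phosphate ester metabolism (CG8665, CG10827), in recognition of microbes (PGRP-SA), and in Toll signaling (Tehao). Of the others, FBtr0174698 carried the term oxidation reduction, FBtr0161658 metallopeptidase activity, FBtr0169769 peptidase activity, FBtr0164107 serine-type endopeptidase inhibitor activity, FBtr0167777 chitin binding, and FBtr0170643 hydrolysis of linear amides. FBtr0162136 was listed under zinc fingers, FBtr0161049 and FBtr0166609 were listed as transmembrane proteins, and the other 13 had no name or term.

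Over the series, array medians ranged from 9.81 to 10.10 on the log2 scale. The median correlation of an array with the others was 0.901 to 0.904 for 3 arrays at 35°C (SQ on agria, replicate 4, SQ on organ pipe, replicate 1, and PP on organ pipe, replicate 4), and at least 0.930 for the rest. In 10 of the 29 members the highest array at 35°C was 1 of these 3. Without them the same rule again gave 29 transcripts, of which 24 were shared. Because whole flies were used, more cells of a type and more RNA per cell cannot be told apart. The vitelline membrane genes Vm26Aa and Vm26Ab, which mark the eggshell of the ovary, were measured on every array. Vm26Aa rose by 2.18 and Vm26Ab by 1.62 between 15 and 25°C (adjusted p = 5.63e-20 and 3.12e-21), and they fell by 0.58 and 0.60 between 25 and 35°C (adjusted p = 0.00695 and 2.65e-05). These 2 transcripts, the only eggshell ones found by name, moved with the members at the first step and against them at the second. The study reported that several chorion protein genes, also of the eggshell, decreased at the first step. Chorion transcripts were not among those found by name, so these values do not describe the eggshell as a whole. The part of eggshell transcripts in the members' values was not tested.

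Rising at both steps was uncommon on this array. The first step was at least 0.2 in 1145 transcripts and the second in 1098, but both were in 47, and 30 of these were also positive in enough combinations. Among the 29 members the first step was 0.20 to 0.82 (median 0.26) and the second 0.20 to 0.98 (median 0.30), beside medians of 0.02 and -0.02 over all transcripts. From 15 to 35°C the members rose 1.34 to 2.79 times, with a median of 1.59 times. The second step was the larger in 20 of 29 members. Just inside the thresholds lay the ninaD orthologue (first step 0.2016), FBtr0161345 (second step 0.2037), and FBtr0167456 (first step 0.2074). Just outside lay FBtr0161840 (second step 0.1992), FBtr0168134 (first step 0.1967), and FBtr0171829 (first step 0.1957).

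**Figure D1:**
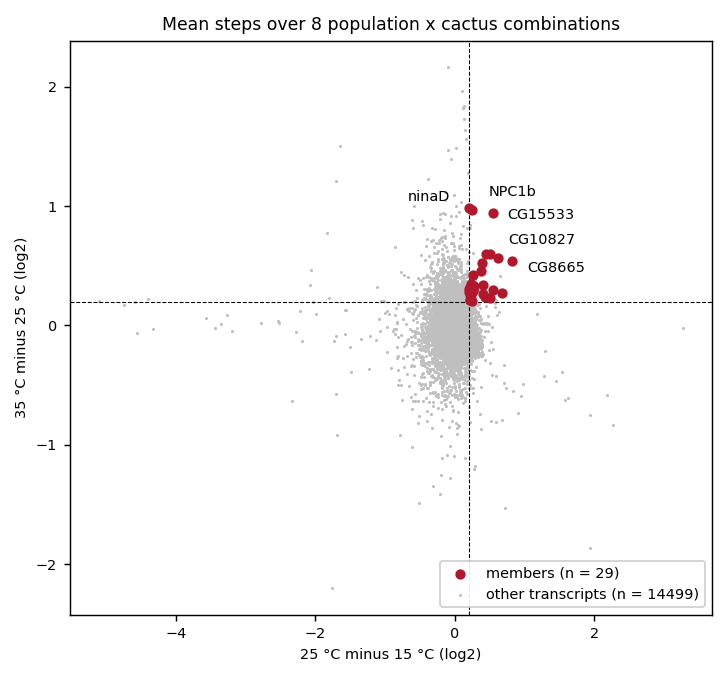
Difference between 25 and 15°C (x axis, log2) against that between 35 and 25°C (y axis, log2), each the mean over the 8 combinations of population and cactus, for the 29 members (red) and all other transcripts (grey). Dashed lines mark the threshold of 0.2 on both steps. The members lie in the corner beyond both lines, with the few others that missed the condition on combinations or region, and the orthologues of ninaD and NPC1b stand out by the second step and that of CG8665 by the first.

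The members that act on lipids in *D. melanogaster* rose more at the second step than at the first. The orthologue of CG15533 (FBtr0175579), annotated as a sphingomyelin phosphodiesterase that splits a membrane lipid into ceramide and a phosphate head group, had the largest sum of both steps. Its log2 level was 8.05, 8.88, and 9.83 at 15°C (lowest, median, and highest of 32 arrays), 8.20, 9.49, and 10.25 at 25°C, and 9.49, 10.30, and 11.36 at 35°C. The sets at 15 and 35°C overlapped, but 28 of the 33 arrays at 35°C lay above the highest array at 15°C. The steps were 0.54 and 0.94, a rise of 2.79 times over both, and the highest array at 35°C was among the 3 that stand apart (next highest 11.03).

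NPC1b (FBtr0166224), whose *D. melanogaster* product takes up dietary sterol in the gut, had 7.94, 8.92, and 9.74 at 15°C, 7.94, 9.21, and 9.96 at 25°C, and 8.74, 10.32, and 11.04 at 35°C. The first step was 0.25 and the second 0.96. The orthologue of ninaD (FBtr0168663), a scavenger receptor through which *D. melanogaster* takes up carotenoids, had 9.11, 10.36, and 11.08 at 15°C, 9.30, 10.54, and 11.25 at 25°C, and 10.70, 11.52, and 12.10 at 35°C. Its steps were 0.20 and 0.98, so that the sets at 15 and 25°C largely overlapped, while 29 of the 33 arrays at 35°C lay above the highest array at 15°C. These 3 members had the least even steps of the 29, each with a second step larger than the first by 0.40 or more. FBtr0162063 was nearly as uneven in the other direction, with a second minus first step of -0.399.

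Both metabolic enzymes rose by similar amounts at each step or more at the first. CG8665 (FBtr0162978) encodes a formyltetrahydrofolate dehydrogenase, an enzyme of the folate pool that carries single carbon units. Its orthologue had 8.72, 9.69, and 10.96 at 15°C, 9.44, 10.50, and 11.26 at 25°C, and 9.99, 11.12, and 11.84 at 35°C. The first step, 0.82, was the largest first step of the 29, and the second was 0.54. The orthologue of CG10827 (FBtr0172734), annotated with alkaline phosphatase activity, had 8.08, 10.37, and 11.18 at 15°C, 8.98, 10.94, and 11.65 at 25°C, and 10.55, 11.50, and 12.37 at 35°C. Its steps were 0.62 and 0.56, and 1 array at 15°C lay far below the other arrays of that temperature. FBtr0174698, listed under oxidation reduction, had steps of 0.38 and 0.45, with 9.62, 11.00, and 11.48 at 15°C, 9.53, 11.43, and 12.04 at 25°C, and 10.43, 11.77, and 12.36 at 35°C.

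Immune genes were represented by a secreted sensor and a membrane receptor. PGRP-SA (FBtr0167198) binds peptidoglycan of the bacterial wall and feeds the Toll pathway in *D. melanogaster*. Its levels were 8.80, 9.65, and 10.32 at 15°C, 8.65, 10.10, and 11.14 at 25°C, and 9.55, 10.42, and 11.36 at 35°C, with steps of 0.40 and 0.34. The orthologue of Tehao (FBtr0170593), a Toll-family receptor, had the smallest sum of steps of the 29 and among the most even, 0.21 and 0.22. It had 7.78, 8.20, and 8.87 at 15°C, 7.73, 8.37, and 9.09 at 25°C, and 7.93, 8.74, and 9.33 at 35°C, and only 11 of 33 arrays at 35°C lay above the highest array at 15°C. FBtr0164107, the serine-type endopeptidase inhibitor, a class that holds proteases in check, had steps of 0.23 and 0.25.

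FBtr0174088, which has no name, separated the extreme temperatures most cleanly. It had 8.89, 9.21, and 9.67 at 15°C, 8.99, 9.70, and 10.17 at 25°C, and 9.79, 10.33, and 10.98 at 35°C. Every array at 35°C lay above every array at 15°C, which held for 1 of the 29 members and for 14 of all 14528 transcripts (0.0964%), and the steps, which chose the members, were 0.50 and 0.60. FBtr0174283 had steps of 0.45 and 0.60, FBtr0166713 of 0.38 and 0.53, and FBtr0170222 of 0.55 and 0.29. FBtr0162063 had steps of 0.67 and 0.28 but was the most variable member, with a residual SD of 0.72 within groups against a median of 0.28 over the members and 0.26 over all transcripts. Its levels were 6.75, 7.50, and 9.51 at 15°C, 7.48, 8.23, and 10.37 at 25°C, and 7.09, 8.60, and 10.18 at 35°C, and the 3 sets overlapped over most of their range. Below the 12 members with the largest sum of steps, the 17 others, Tehao and FBtr0164107 among them, rose 1.34 to 1.66 times from 15 to 35°C, and between 3 and 31 of their 33 arrays at 35°C lay above the highest array at 15°C.

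**Figure D2:**
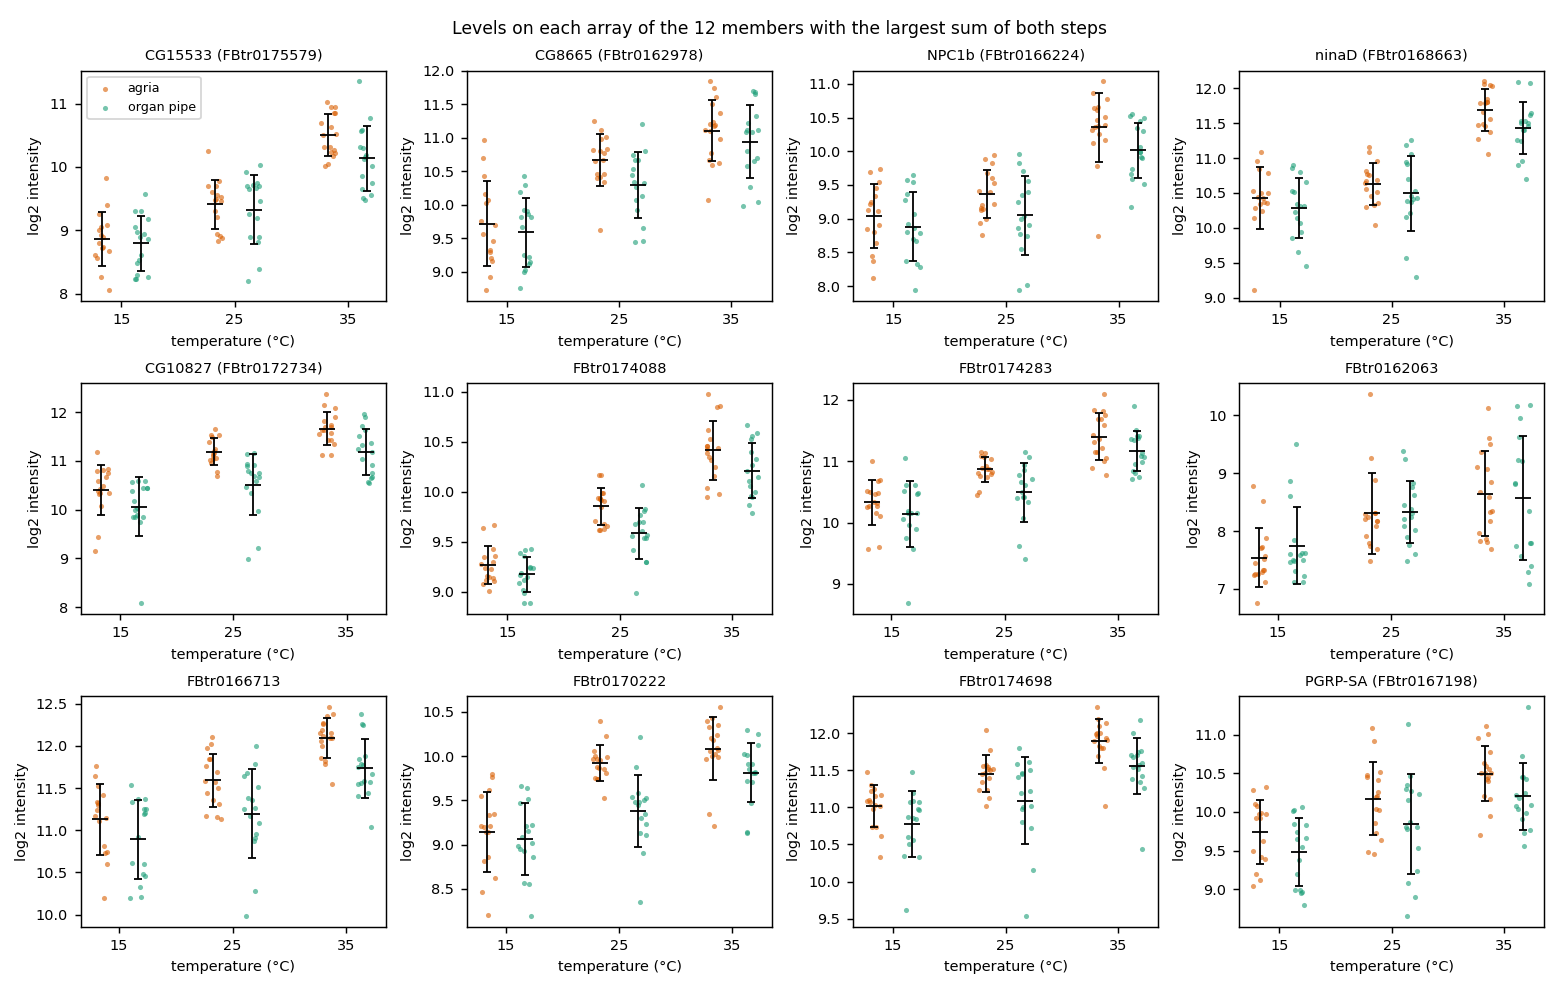
Log2 intensity (y axis) on every array at 15, 25, and 35°C (x axis) for the 12 members with the largest sum of both steps, agria at the left and organ pipe at the right of each temperature. Points are arrays, horizontal marks and bars the mean ± SD. FBtr0174088 is the panel in which no array at 35°C reaches down to those at 15°C, and FBtr0162063 is the one with the widest scatter.

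By group means, the steps were not the same in every combination of population and cactus. For the interaction of population, cactus, and temperature, 0 of 29 members passed, as given below. Of the 29 members, 8 were positive at both steps in all 8 combinations, 6 in all 8 at the first step only, 7 in all 8 at the second step only, and 8 in 7 of 8 at each. Most of the exceptions at the first step were in OPNM flies on organ pipe cactus, where 19 of 29 members were positive, against at least 26 in every other combination. The largest of these was FBtr0172045 at -0.50, followed by ninaD at -0.35 and FBtr0174698 at -0.27. In this combination, replicate 2 at 25°C had a median correlation with the other arrays of 0.931, and its part was not tested. The median first step was 0.13 in OPNM and 0.14 in SQ flies on organ pipe cactus, and 0.30 to 0.45 in the other 6 combinations. At the second step the medians were lowest in PO flies, 0.21 on both cacti, and highest in OPNM flies on agria, 0.58. Over all transcripts the medians of each combination were between -0.04 and 0.07.

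**Figure D3:**
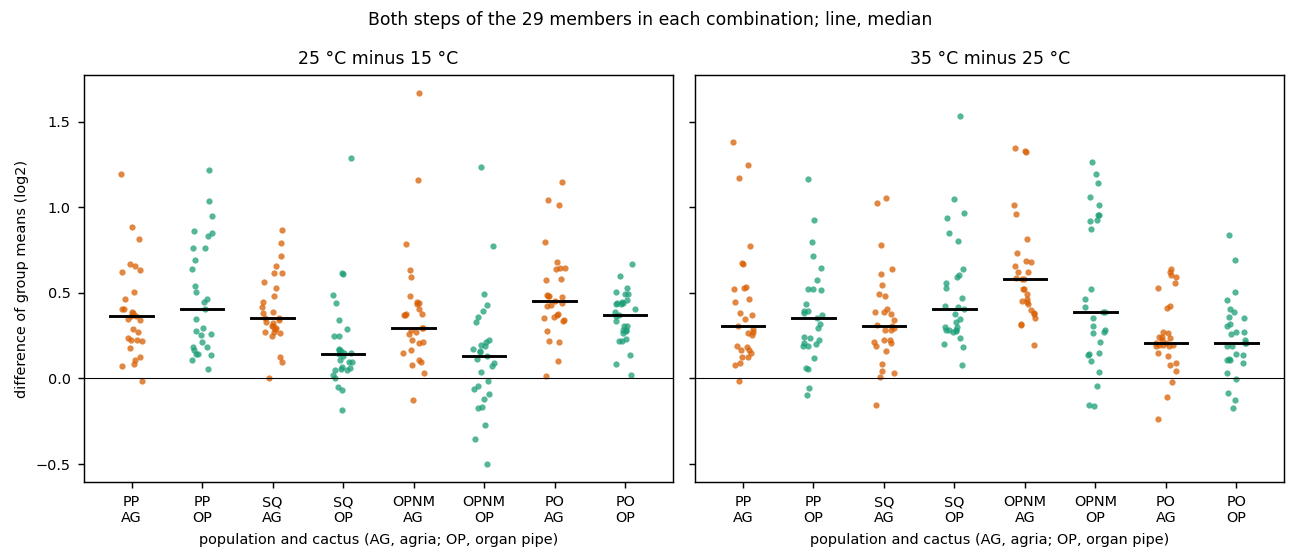
Difference of group means (y axis, log2) for the 29 members in each combination of population and cactus (x axis), at the left 25 minus 15°C and at the right 35 minus 25°C. Points are members, horizontal lines medians. The median first step is smallest in SQ and OPNM flies on organ pipe cactus, and the median second step is smallest in PO flies.

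The rearing cactus was not used to choose the members, and it was tested in limma over all transcripts with p-values adjusted jointly over all comparisons of the design and a threshold of 0.01. Of the 29 members, 11 (37.9%) passed between agria and organ pipe, beside 17.0% of all transcripts, and all 11 were higher on agria. The alkaline phosphatase CG10827, the Toll-family receptor Tehao, and the peptidoglycan sensor PGRP-SA were among them, with 8 members that have no orthologue name. The differences of the 11 were 0.17 to 0.49, or 1.13 to 1.41 times. At an unadjusted p under 0.05 in limma there were 18 of 29 members, beside 55.2% of all transcripts. Over all transcripts, 14.5% were higher and 2.44% lower on agria, a split of 85.6% higher among those called that became 1366 higher and 1367 lower when each array was centred on its median, and 72.3% higher when quantile normalization was applied again. With those scalings 7 and 9 of the 11 passed, all higher on agria. FBtr0174088, FBtr0174283, PGRP-SA, and FBtr0164107 were the 4 lost with centring. Without replicate 1 of every group 6 passed, namely CG10827, FBtr0174088, FBtr0166713, FBtr0172045, FBtr0164107, and Tehao.

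The orthologue of CG10827 had a log2 level of 9.16, 11.15, and 12.37 on agria (lowest, median, and highest of 49 arrays), against 8.08, 10.62, and 11.95 on organ pipe (48 arrays). The arrays of both cacti overlapped over most of their range, the mean difference was 0.49 ± 0.08 (SE), and the mean was higher on agria in 11 of the 12 pairs of groups (adjusted p = 4.01e-06). Tehao had 7.81, 8.74, and 9.33 on agria, against 7.73, 8.23, and 9.20 on organ pipe, a difference of 0.39 ± 0.05 that was positive in 12 of 12 pairs (adjusted p = 3.42e-09). FBtr0172045 had 9.74, 10.87, and 11.84 on agria, against 9.11, 10.53, and 11.42 on organ pipe, a difference of 0.39 ± 0.06, also positive in 12 of 12 (adjusted p = 6.14e-06).

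FBtr0166713 and the oxidation-reduction member FBtr0174698 followed. FBtr0166713 had 10.19, 11.64, and 12.46 on agria, against 9.98, 11.36, and 12.38 on organ pipe, and differed by 0.33 ± 0.06, in 10 of 12 pairs (adjusted p = 2.48e-05). FBtr0174698 had 10.33, 11.48, and 12.36 on agria, against 9.53, 11.21, and 12.18 on organ pipe, and differed by 0.32 ± 0.06, in 11 of 12 pairs (adjusted p = 0.000297, and 0.0162 without replicate 1). The 3 lipid-handling members were also higher on agria by point estimate but did not pass, at 0.17 ± 0.07 for CG15533, 0.26 ± 0.08 for NPC1b, and 0.17 ± 0.07 for ninaD (adjusted p = 0.13, 0.021, and 0.11). Without the 3 arrays that stand apart NPC1b passed as well, at 0.30 (adjusted p = 0.00166), and the count of members was 12. Among the members with a negative difference, the chitin-binding FBtr0167777 was lowest, at -0.17 ± 0.06 (adjusted p = 0.0864). Within populations the median difference of the 11 was 0.45 in PP, 0.23 in SQ, 0.47 in OPNM, and 0.04 in PO flies, in which 8 of 11 were above 0.

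**Figure D4:**
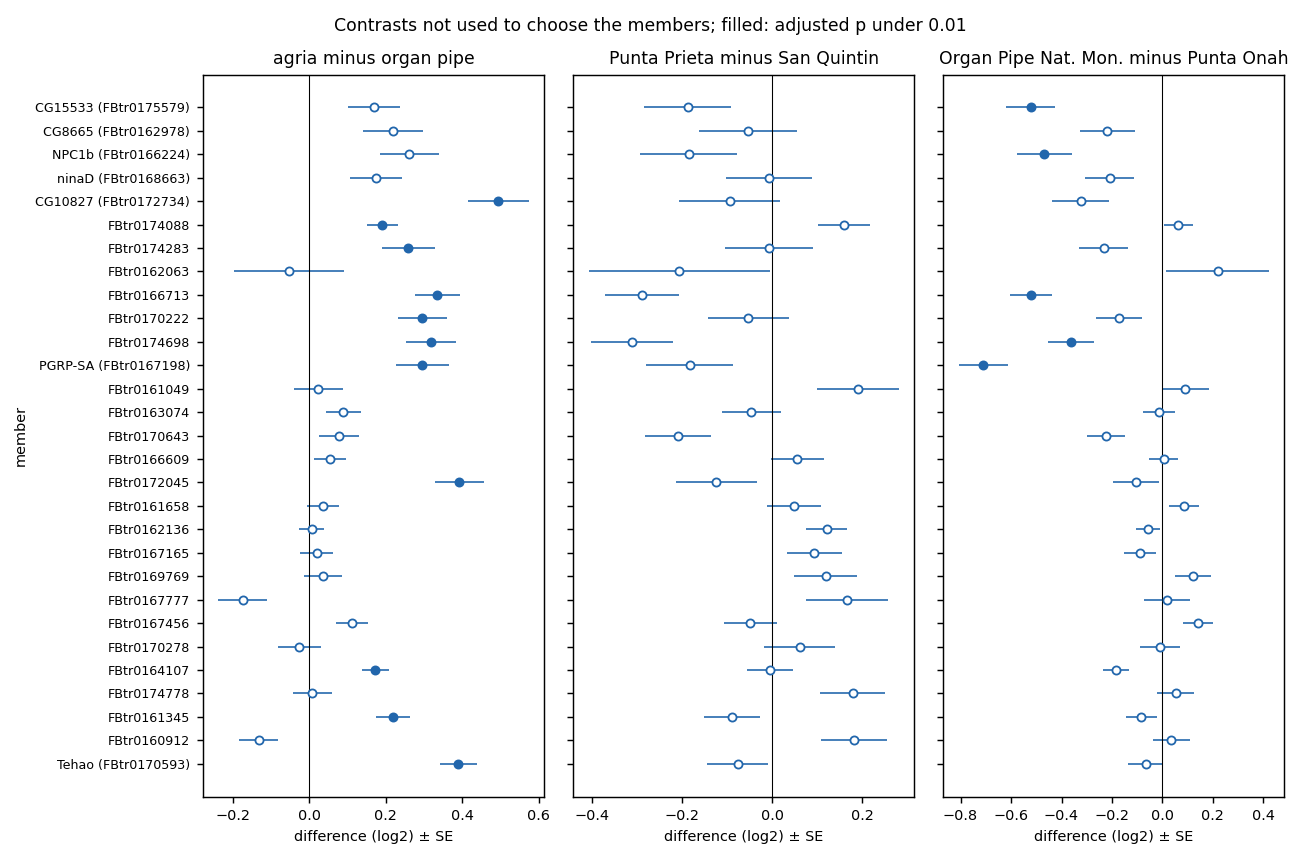
Differences on the log2 scale (x axis) for the 29 members (rows, ordered by the sum of both steps) between agria and organ pipe, between PP and SQ, and between OPNM and PO. Points are fitted differences, bars ± SE, and filled points had an adjusted p under 0.01. The filled points are 11 at the left, all above 0, none in the middle, and 5 at the right, all below 0.

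Between the Baja California populations, 0 of the 29 members passed the test in limma, beside 1.09% of all transcripts, and 8 had an unadjusted p under 0.05, beside 19.8% of all. Differences between PP and SQ were between -0.31 and 0.19. The nearest to the threshold were FBtr0166713, at -0.29 ± 0.08, and FBtr0174698, at -0.31 ± 0.09 (adjusted p = 0.0173 and 0.0198). FBtr0166713 had 10.20, 11.45, and 12.25 in PP (25 arrays), against 11.17, 11.56, and 12.46 in SQ (24 arrays), so that the lower end of its range extended further in PP.

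Between the mainland populations, 5 of 29 members (17.2%) passed, beside 3.90% of all transcripts, and all 5 were lower in OPNM than in PO flies, as were 2.60% of all transcripts (1.29% were higher). PGRP-SA, the peptidoglycan sensor, had 8.65, 9.49, and 10.40 in OPNM (24 arrays), against 9.11, 10.22, and 11.14 in PO (24 arrays). It fell by 0.71 ± 0.10 in OPNM, 1.64 times, and was lower in 6 of 6 pairs of groups (adjusted p = 8.04e-08). CG15533, the sphingomyelin phosphodiesterase, had 8.05, 8.89, and 10.62 in OPNM, against 8.26, 9.68, and 10.53 in PO, and fell by 0.52 ± 0.10, in 6 of 6 pairs (adjusted p = 7.77e-05).

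FBtr0166713 had 9.98, 11.16, and 12.36 in OPNM, against 10.60, 11.70, and 12.38 in PO, and fell by 0.52 ± 0.08, in 6 of 6 pairs (adjusted p = 3.51e-06). NPC1b, the sterol transporter, had 7.94, 8.89, and 10.39 in OPNM, against 8.37, 9.60, and 10.35 in PO, and fell by 0.47 ± 0.11, in 5 of 6 pairs (adjusted p = 0.00208). FBtr0174698 had 9.53, 11.20, and 12.13 in OPNM, against 10.61, 11.53, and 12.04 in PO, and fell by 0.36 ± 0.09, in 5 of 6 pairs (adjusted p = 0.00525). In all 5 the medians were apart while the highest arrays of both populations were close for every one except PGRP-SA. The means of OPNM and PO flies were closest at 35°C in all 5. For NPC1b they were 8.69 and 9.45 at 25°C, and 9.96 and 10.02 at 35°C. For FBtr0174698 they were 10.85 and 11.64 at 25°C, and 11.74 and 11.76 at 35°C. Agria minus organ pipe was 0.38 to 0.60 in OPNM and -0.09 to 0.06 in PO flies for these 5. By point estimate the populations thus differed more on organ pipe. None of these 5 passed the interaction F test in limma for population and cactus (adjusted p = 0.182 to 0.510). Nor did any pass that for population and temperature (adjusted p = 0.0736 to 0.673). Without replicate 1 or without replicate 2 of every group, NPC1b and FBtr0174698 no longer passed, and 3 members did. Between the regions, which the rule capped, the members' differences of Baja California minus mainland were -0.16 to 0.35, with a median of 0.10.

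Whether the steps themselves differed between groups was tested with the interaction terms, adjusted over all transcripts within each term, and the requirement of 7 of 8 positive combinations limits how far the members could differ. For population and temperature, 12 of 29 members had an unadjusted p under 0.05, beside 13.4% of all transcripts. After adjustment 1 of 29 members passed, beside 0.241% of all transcripts, and this was the folate enzyme CG8665 (FBtr0162978, adjusted p = 0.00998). In PP flies it had 9.02, 9.76, and 10.70 at 15°C (8 arrays), 10.14, 10.60, and 11.02 at 25°C (8 arrays), and 11.08, 11.17, and 11.60 at 35°C (9 arrays). In SQ flies it had 9.57, 9.87, and 10.96, then 9.47, 10.30, and 11.26, then 10.60, 11.58, and 11.84, so that the sets at 15 and 25°C overlapped almost wholly.

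In OPNM flies CG8665 had 8.72, 9.06, and 9.29 at 15°C, all below every array of these flies at 25°C, which had 9.44, 10.56, and 11.21, and 10.04, 10.82, and 11.74 at 35°C. In PO flies it had 9.16, 9.89, and 10.44, then 9.92, 10.70, and 10.99, then 9.99, 10.68, and 11.08. The first step was 0.85 in PP, 0.22 in SQ, 1.45 in OPNM, and 0.78 in PO flies. The second was 0.63 in PP, 1.16 in SQ, 0.36 in OPNM, and 0.0001 in PO flies. This call is close to the threshold, and the adjusted p was 0.0142 with the replicate block, 0.0178 with each array centred on its median, 0.0168 with quantile normalization applied again, and 0.0102 to 0.247 without 1 of the replicate numbers.

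**Figure D5:**
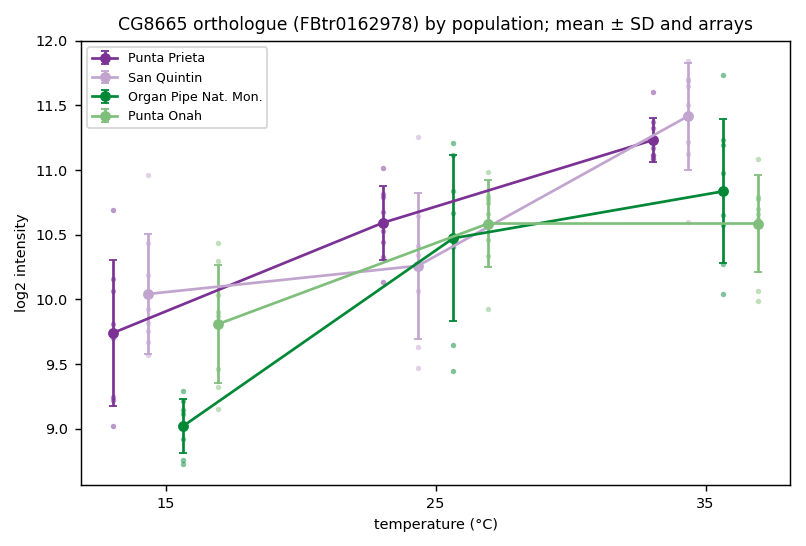
Log2 intensity (y axis) of the CG8665 orthologue at 15, 25, and 35°C (x axis) in the 4 populations. Large points and bars are the mean ± SD of the 8 or 9 arrays of both cacti, small points the arrays. The line of Organ Pipe National Monument starts lowest and climbs most at the first step, that of San Quintin climbs most at the second, and that of Punta Onah is level from 25 to 35°C.

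For cactus and temperature 0 of 29 members passed in limma, as did 0% of all transcripts, and 3 members had an unadjusted p under 0.05, beside 2.96% of all. For population and cactus 0 passed, beside 0.131% of all, and 12 had an unadjusted p under 0.05, beside 13.1% of all. The nearest was FBtr0174283 (adjusted p = 0.0188), which was higher on agria by 0.47 in PP, 0.23 in SQ, and 0.64 in OPNM flies and had a difference of -0.31 in PO flies. For the interaction of population, cactus, and temperature, 0 members and 0% of all transcripts passed, with 1 member at an unadjusted p under 0.05, beside 1.12% of all.

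How far the members varied together from array to array was described by the correlation of their residuals, the deviations from the group means, over the 97 arrays, which share 1 normalization. The median over the 406 pairs of members was 0.158, against -0.0275 over 1054878 pairs drawn from regularly spaced transcripts of the array, and 17.2% of the members' pairs were above 0.5, against 13.5% of those pairs. FBtr0166713 and FBtr0174698, which both differed in the same direction between cacti and between mainland populations, had the highest value, 0.821. The 21 pairs of the 7 named members ran from 0.0396 for CG8665 and PGRP-SA to 0.686 for CG15533 and CG10827. Among themselves, CG15533, NPC1b, and ninaD had 0.595 to 0.641. The same range was not taken for other named transcripts. At the other end, FBtr0167777 and FBtr0170222 had -0.548, and 22 of 29 members had a positive median correlation with the rest. The transcripts closest to CG15533, NPC1b, and ninaD over the whole array lay outside the members, at 0.825, 0.808, and 0.86.

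Other transcripts of the members' functional classes were read from terms that the study assigned to transcripts it had called in these samples, so that their directions are not independent evidence. The class counts include the members, which were chosen by these same steps, so the members' own rises in them are not a result. Over all transcripts, 6.07% passed at the first step and 12.5% at the second: 249 (1.71%) rose and 633 (4.36%) fell between 15 and 25°C, and 796 (5.48%) rose and 1020 (7.02%) fell between 25 and 35°C. Of 82 transcripts under oxidation reduction, members included, 7 rose and 21 fell at the first step, and 12 rose and 25 fell at the second. Of 30 serine-type endopeptidase inhibitors, 1 rose, the member, and 12 fell at the first step, and 3 rose and 9 fell at the second. Of 65 metallopeptidases, 1 rose and 15 fell at the first step, the riser again being the member, and 13 rose and 7 fell at the second. Of 8 transcripts under peptidoglycan metabolism, 1 rose, the member PGRP-SA, and 3 fell at the first step, and 3 rose and 1 fell at the second. In these 4 classes no transcript outside the members passed upward at both steps, but in others some did. Of 57 transmembrane proteins, 27 rose and 30 fell at the first step, 5 rose and 6 fell at the second, and 4 outside the members passed upward at both. Of 5 transcripts under zinc fingers, 5 rose and 0 fell at the first step, 2 rose and 1 fell at the second, and 1 outside the members passed upward at both. Of 25 hydrolases of linear amides, 4 rose and 8 fell at the first step, 8 rose and 4 fell at the second, and again 1 outside the members passed upward at both. Among the 20 lists of genes by name, 13 held at least 1 measured transcript with a name and 1 held a member, the chitin-binding FBtr0167777 in the cuticle list. Of the 23 transcripts of that list 1 rose and 7 fell at the first step, and 3 rose and 5 fell at the second.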

How the data were processed

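Per the labels and the study's methods, Cy3-labelled cDNA of whole females was hybridized to custom NimbleGen one-color arrays, and the authors quantile-normalized spot intensities with NimbleScan and summarized probes with RMA. The deposited values are log2 intensities for 14528 transcripts on 97 arrays, all used, with no further normalization or filter. Neither signal over background nor scan batches could be examined, and the number of arrays limits the precision. Group and replicate came from the labels. OPNM flies on organ pipe cactus at 35°C have 2 arrays labelled replicate 3 and none labelled 2. Nothing states whether replicates were separate cultures, so p-values measure only the spread between these samples.

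A mean for each of 24 groups was fitted in limma 3.58.1 under R 4.3.3 (73 residual degrees of freedom), levels being equally weighted group means. P-values were adjusted by Benjamini-Hochberg over 483 pairwise comparisons and all transcripts together, with a threshold of 0.01, and interaction F tests within each term. The fit and the rule were also run on simulated data. The simulated noise was independent between transcripts and arrays, so variation that transcripts share was not covered. The members and lists were chosen with earlier results of these data known. Named members are the 12 with the largest sum of steps, the 5 largest differences past the threshold per comparison, the 3 smallest adjusted p per interaction, members of a list, the 3 nearest the thresholds on either side, and the 3 most and least even in their steps. Only non-members that a result turned on were named. The alternatives were other scalings, filters, thresholds, adjustments, and variance models, the replicate block, and leaving out replicates. Names came from the supplementary tables (4000 transcripts with a gene, 396 with an orthologue), and 0 identifiers matched the RefSeq gene table, so that product names, promoters, and positions were not used here.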

Additional observations from a re-analysis of the deposited data

Results flagged for a closer look

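The CG8665 orthologue (FBtr0162978) was singled out because its steps between temperatures differed between populations by a test of the difference itself, the population and temperature interaction (adjusted p = 0.00998 in limma). Its first step was 1.45 in OPNM and 0.22 in SQ flies, and its second step was 1.16 in SQ and 0.0001 in PO flies. The 12 sets of 8 or 9 arrays, 1 for each population and temperature, were also searched for an array far from the rest, and 0 were found.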

How the results depend on the processing

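The rule gave 62 members with thresholds of 0.15, 8 with 0.3, and 8 when all 8 combinations had to be positive. After median centring of every array, the unchanged rule gave 49 (all 29 and 20 more). Quantile normalization applied again gave 32, of which 23 were shared, and leaving out 1 replicate number gave 20 to 32, of which 13 to 27 were shared. Between agria and organ pipe, 7 members passed with centring, 9 with quantile normalization, 6 to 11 without 1 replicate number, and 12 at an adjusted p under 0.05, with adjustment within each comparison, or without the 3 arrays that stand apart. Between OPNM and PO, 3 to 6 passed without 1 replicate number. Between PP and SQ, 2 passed at an adjusted p under 0.05, 1 without the 3 arrays that stand apart (an alternative chosen after seeing the data), and 0 to 2 without 1 replicate number. For population and temperature, 0 passed with centring, with quantile normalization, with the replicate block, and without any 1 replicate number, and 3 at an adjusted p under 0.05, under which 1 passed for population and cactus. Of 130 differences of named members under the alternatives, 124 kept direction and call, 6 kept direction only, and 0 reversed. The interaction p of CG8665 lost its call in 8 of 12 alternatives. The cause of these changes was not tested.

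Same-numbered arrays of different groups did not deviate together (median correlation of deviations -0.00208, against 0.0116 for other numbers), which gave no sign that the numbers pair the samples. Whether some of them shared a culture or batch was not tested. With the replicate block, 11 members passed between cacti, 5 between OPNM and PO, and 0 between PP and SQ.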
